A study of Mus musculus with 2 samples.

Results

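The osteocyte marker genes described here were 10 named genes: Dmp1, Phex, Mepe, Sost, Fgf23, Pdpn, Cd44, Ank, Irx5 and Ptprz1, which run from early to mature osteocyte genes. Their members on the array were all probe sets whose only gene symbol in the platform annotation is one of these names, and 15 such probe sets were found for the 10 genes, out of 20380 probe sets for 12393 genes in all. A probe set is a group of short oligonucleotides that is read as 1 intensity for a transcript. Total RNA of bone, labelled as c57Bl/6 femur, was read on 2 arrays: 1 for an allograft sample, where tissue passes between animals of a species, and 1 for an autograft sample, where it is moved within an animal. The labels give no donor or host, age, sex, operation, time after grafting or number of animals for either sample, and they do not say whether RNA was pooled. With 1 array per graft type there was no replicate, so no test between graft types, p-value or standard error is given, and every difference below is a difference between these 2 arrays.

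Osteocytes are former osteoblasts that have become enclosed in the bone matrix they made and that keep contact with each other and with the bone surface through long dendrites. Young osteocytes carry podoplanin on their growing dendrites and then make the matrix and phosphate-regulating genes Dmp1, Phex and Mepe. Mature osteocytes secrete sclerostin, the product of Sost and an inhibitor of Wnt signalling and bone formation, and FGF23, a hormone that lowers phosphate reabsorption in the kidney.

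Of the 15 probe sets, 10 (8 genes) exceeded the floor in both samples, 0 in a single sample and 5 in neither; the floor was 175.2, the median of all non-control intensities of both arrays. Ratios are log2 of the allograft intensity minus log2 of the autograft intensity. Among the 10 measured probe sets 8 had a ratio below 0, beside 58.3% of the 11010 named probe sets above the floor on at least 1 array. Their median ratio was -0.31, against -0.07 over those 11010. No member was 2-fold lower in the allograft sample (background 0.718%) and none was 2-fold higher (background 0.99%). At least 1.5-fold lower were 4 of the 10 (background 6.49%): Dmp1, Phex, Irx5 and the brightest Ptprz1 probe set. At least 1.5-fold higher were 0 of the 10 (background 4.28%). In bulk RNA of this kind, fewer cells of a type and less RNA per cell cannot be told apart.

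**Figure D1:**
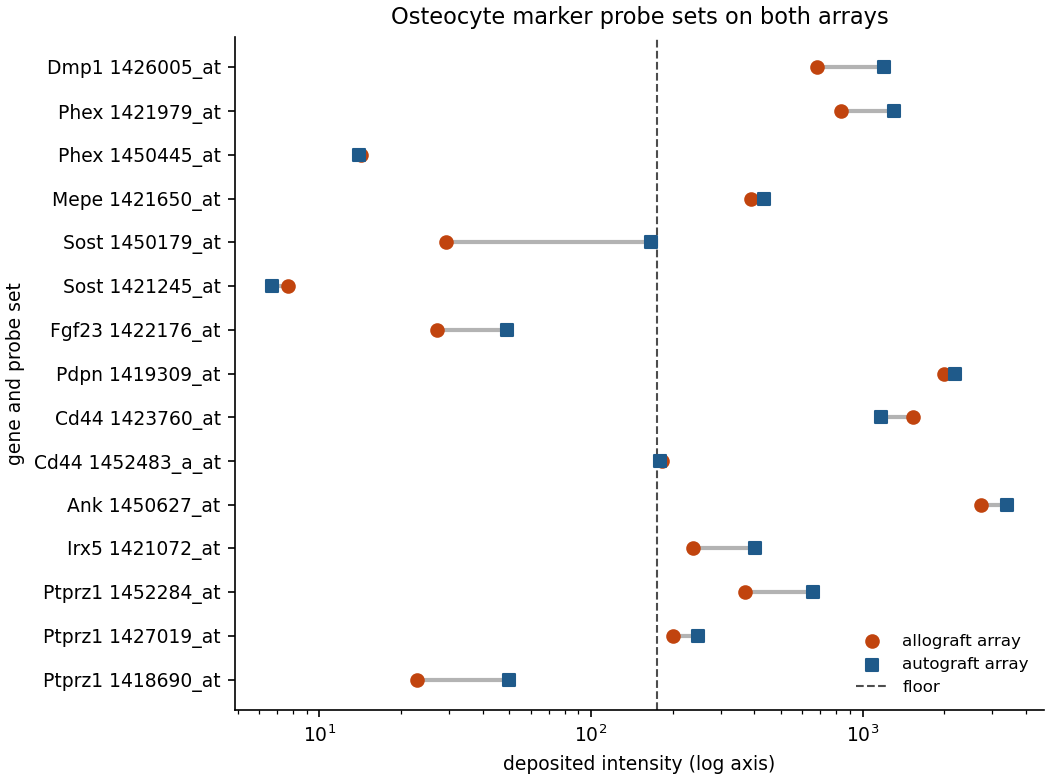
Deposited intensity (log axis) of each of the 15 osteocyte marker probe sets in the allograft (circles) and autograft (squares) sample, with a grey bar joining both values and a dashed line at the floor of 175.2. The 5 probe sets of Sost, Fgf23, Phex and Ptprz1 to the left of the line on both arrays have no ratio.

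The only error that these arrays allow is the disagreement between probe sets of a gene. In 1925 genes at least 2 probe sets passed the floor in both samples, and the ratios from the brightest and the next of them differed with an SD of 0.44. Ordered by ratio, neighbouring member probe sets differed by at most 0.37, the gap between the Cd44 probe sets, and no step was larger than that SD. Steps between sorted values are small by construction, so their size does not show whether members differ from each other. That SD holds no variation between animals or repeated arrays, so it cannot show that any members differ between graft types. At the ends of the order, Dmp1 and the brightest Ptprz1 probe set lay at -0.83 and the brightest Cd44 probe set at 0.40. The central 95% of the ratios of all 11010 probe sets ran from -0.76 to 0.72, and of the members Dmp1 and that Ptprz1 probe set lay outside it.

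**Figure D2:**
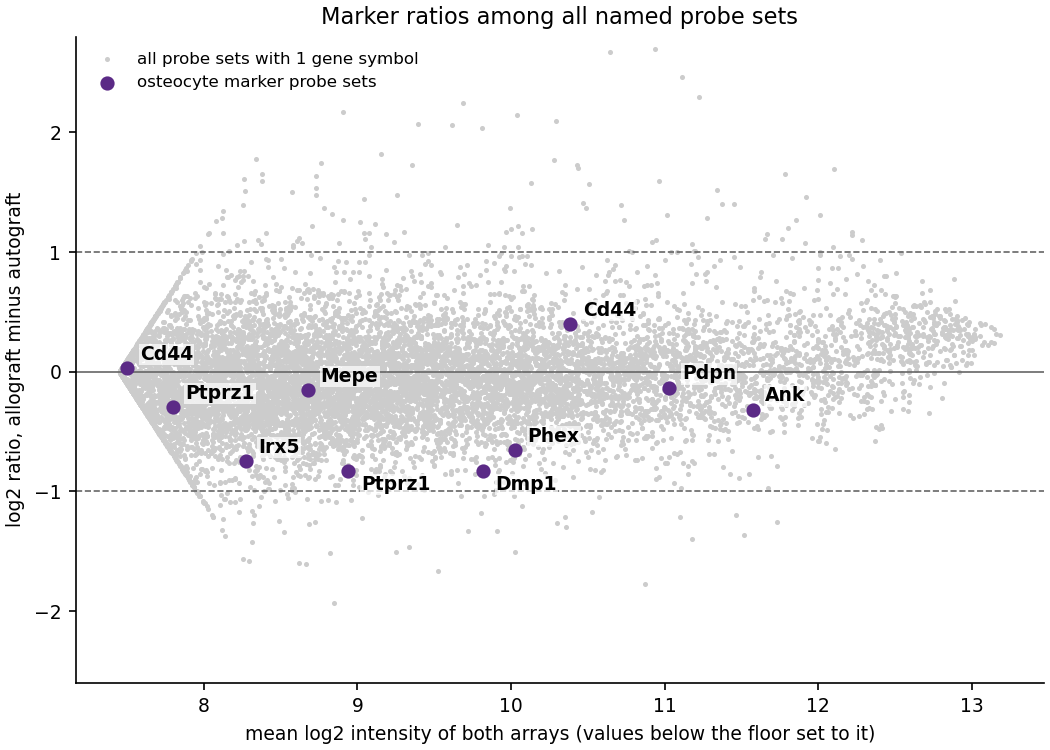
Log2 ratio of allograft over autograft (vertical axis) against mean log2 intensity of both arrays (horizontal axis) for the 11010 named probe sets above the floor on at least 1 array (grey; a few with ratios beyond the vertical axis are not drawn) and the 10 osteocyte marker probe sets among them (purple). The dashed lines mark 2-fold, and no marker lies beyond them.

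Dmp1, dentin matrix protein 1, is an acidic phosphoprotein of the osteocyte matrix that takes part in mineral formation and whose loss raises FGF23. Its probe set (1426005_at) read 677 in the allograft sample and 1204 in the autograft sample. The allograft value was thus 1.78-fold lower, a ratio of -0.83, and 1.86% of the 11010 named probe sets had a ratio as low or lower. Dmp1 is a member of the SIBLING family, small integrin-binding proteins whose genes Dspp, Dmp1, Ibsp, Mepe and Spp1 lie in a cluster in RefSeq of assembly GRCm38.p6. Mepe, a further member that is released by osteocytes and carries a mineral-binding peptide at its end, read 389 in the allograft and 433 in the autograft sample (1421650_at). That is 1.11-fold lower, at a ratio of -0.15, and 39.2% of named probe sets were as low. Dmp1 thus lay near the low edge of all ratios and Mepe well inside them.

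Phex is a membrane-bound endopeptidase of osteoblasts and osteocytes whose loss leads to high FGF23 and low blood phosphate. Its brighter probe set (1421979_at) read 832 against 1309, a ratio of -0.65 or 1.57-fold lower in the allograft sample, and 4.47% of named probe sets were as low. The second Phex probe set (1450445_at), listed for the same GenBank record as the first, read 14.2 against 14.0 and was below the floor on both arrays, so Phex rests on a single probe set.

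Fgf23 itself was below the floor on both arrays, at 27.1 in the allograft and 49.2 in the autograft sample (1422176_at). Sost has a pair of probe sets. The first (1421245_at) read 7.7 against 6.7. The other (1450179_at) read 29.2 in the allograft and 167.1 in the autograft sample, and the autograft value lies just under the floor of 175.2. No ratio is given for either gene at that floor. If the floor is lowered to the 25th percentile of intensities, 50.6, the second Sost probe set becomes the 1 member at least 2-fold lower in the allograft, with a bound of -1.72, and 2.6% of probe sets are then at least 2-fold lower. A probe set below the floor does not show that a gene is silent, as the pair of Phex probe sets shows.

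The upstream sequences of Dmp1, Phex, Sost, Fgf23, Mepe and Ank are shown because 4 of them hold the same short element, TTTAAA, close to a start. RefSeq starts of assembly GRCm38.p6 were at hand for 9 of the 10 members, with 10 starts in all since Dmp1 has 2. In the 250 bases upstream of the start, both strands were searched for TGTGGT (the RUNX core), TATAAA (the TATA box), TTTAAA (a variant of that box), CCAAT (the CCAAT box), CACGTG (an E-box), TGANTCA (the AP-1 site) and GGGCGG (the GC box). The motifs were chosen with the sequences in view, so the counts are descriptions. Each line gives the 150 bases that end just before the start, 5′ to 3′ on the gene's strand, with matches to any of these motifs in capitals.
Dmp1, downstream start, chr5:104202467-104202616, + strand: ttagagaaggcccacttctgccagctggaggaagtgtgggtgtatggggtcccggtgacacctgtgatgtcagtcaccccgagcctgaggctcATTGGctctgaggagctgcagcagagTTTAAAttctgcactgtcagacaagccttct
Phex, chrX:157415287-157415436, - strand: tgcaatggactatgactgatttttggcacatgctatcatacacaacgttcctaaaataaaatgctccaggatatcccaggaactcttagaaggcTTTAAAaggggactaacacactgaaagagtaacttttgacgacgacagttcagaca
Sost, chr11:101967016-101967165, - strand: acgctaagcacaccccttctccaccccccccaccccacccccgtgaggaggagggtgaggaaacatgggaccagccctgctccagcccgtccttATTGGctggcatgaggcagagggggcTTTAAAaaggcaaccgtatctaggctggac
Fgf23, chr6:127072752-127072901, + strand: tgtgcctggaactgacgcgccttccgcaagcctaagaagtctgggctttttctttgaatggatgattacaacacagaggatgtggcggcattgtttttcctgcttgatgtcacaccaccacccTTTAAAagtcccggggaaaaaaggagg
Mepe, chr5:104325179-104325328, + strand: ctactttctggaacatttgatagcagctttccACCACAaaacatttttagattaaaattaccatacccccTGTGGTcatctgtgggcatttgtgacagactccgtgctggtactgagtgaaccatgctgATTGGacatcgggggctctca
Ank, chr15:27466527-27466676, + strand: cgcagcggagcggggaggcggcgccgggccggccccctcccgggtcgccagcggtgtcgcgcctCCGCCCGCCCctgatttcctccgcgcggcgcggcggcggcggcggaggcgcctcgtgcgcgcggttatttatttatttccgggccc

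TTTAAA begins 31 bases upstream of this Dmp1 start, 30 upstream of Sost, 27 upstream of Fgf23 and 56 upstream of Phex. Counting Pdpn, where it begins 49 bases upstream, 5 of the 10 member starts hold it, beside 12.1% of the 32851 RefSeq promoters searched. TATAAA or its complement was found at 1 start, 173 bases upstream of Mepe, beside 12.4% of all promoters. The RUNX core, to which the osteoblast factor RUNX2 binds, has 2 matches upstream of Mepe, at 118 and 80 bases, and 1 upstream of the downstream Dmp1 start, at 164 bases and so outside the stretch shown; 14% of all promoters hold it. CCAAT or its complement ATTGG was found at 4 starts (Sost, Mepe and both of Dmp1; 33.8% of all). CACGTG stood upstream of Pdpn and of the upstream Dmp1 start (6.02% of all), and TGANTCA upstream of none (6.75% of all). The Ank sequence is of another kind: its 250 bases are 81.2% G or C and hold 49 CG pairs, against 39.2% and 4 for Phex and medians of 52.4% and 6 over all promoters. GGGCGG was found upstream of Ank and Ptprz1 only (32.7% of all). Members with the same element had ratios apart as well as alike. Of those with TTTAAA, Dmp1 stood at -0.83, Phex at -0.65 and Pdpn at -0.13, while Sost and Fgf23 have no ratio at the main floor. Of those with GGGCGG, Ank stood at -0.32 and Ptprz1 at -0.83 and -0.30. A link between these elements and the ratios was not tested.

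Ank encodes a membrane protein that raises pyrophosphate outside the cell and so limits mineral growth. It read 2729 in the allograft and 3402 in the autograft sample (1450627_at), a ratio of -0.32 or 1.25-fold lower, and 22.1% of named probe sets were as low. Pdpn, podoplanin (also called E11), is the membrane glycoprotein of the early osteocyte dendrite and is found on lymphatic endothelium too. It read 1996 against 2190.0 (1419309_at), a ratio of -0.13. Ank and Pdpn both read lower in the allograft sample; the SD of a single ratio, derived from the difference between probe sets of a gene, is 0.31, which the Pdpn ratio is within and the Ank ratio about equals. Of 5 lymphatic endothelial markers 4 were on the array. Of these, 3 were above the floor: Flt4 at 593 against 650 (-0.13, with another probe set at a bound of -0.39), Lyve1 at 293 against 312 (-0.09) and Reln at 400 against 345 (0.21). Prox1 was below it on both arrays, and the list summed to an intensity of 1342 on the allograft and 1387 on the autograft array. The part of these cells in the Pdpn values was not tested.

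Cd44, the hyaluronan receptor, is found on osteocytes and their dendrites and on most leukocytes. It was the only member with ratios above 0. The brighter probe set (1423760_at) read 1537 in the allograft and 1166 in the autograft sample, 1.32-fold higher at a ratio of 0.40, and 9.64% of named probe sets were as high. The other (1452483_a_at) read 183 against 180, a ratio of 0.03, with both values just above the floor. By the brightest probe set of each gene, most leukocyte markers also lay above 0: of 9 on the array 7 were above the floor, 6 of them with a ratio above 0, with a median of 0.60 and a summed intensity of 33486 in the allograft against 24352 in the autograft sample. Of all 7833 genes above the floor on at least 1 array, 59.5% had a ratio below 0. Ptprc, the common leukocyte antigen, read 2389 against 1455 (0.72), while Cd68 was the exception at 3294 against 4827 (-0.55), and Cd3e and Itgam were below the floor on both arrays. Further probe sets of these genes went the other way, with Laptm5 at -0.76 and at a bound of -0.65, and Csf1r at -0.59 and -0.03. The part of leukocytes in the Cd44 values was not tested.

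Irx5 is an Iroquois homeobox transcription factor of limb and skeletal development. It read 239 in the allograft and 401 in the autograft sample (1421072_at), a ratio of -0.75 or 1.68-fold lower, and 2.72% of named probe sets were as low. Its allograft value is not far above the floor. Of the 6 Iroquois genes, all on the array, Irx3 was the only other one above the floor, at 401 against 458 (-0.19); Irx1, Irx2, Irx4 and Irx6 were below it on both arrays.

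Ptprz1 is a receptor-type tyrosine phosphatase that binds pleiotrophin and midkine and is found in bone cells and in glia. Its 3 probe sets gave different readings. The brightest (1452284_at) read 368 against 656, a ratio of -0.83 or 1.78-fold lower in the allograft sample, and 1.8% of named probe sets were as low. The second (1427019_at) read 201 against 247, at -0.30. The last (1418690_at) was below the floor on both arrays, at 22.9 against 49.9. The first 2 differ by 0.54 in ratio, which is more than the SD of 0.44 between probe sets of a gene, and both read lower on the allograft array. If the floor is raised to the 75th percentile, 562, the allograft value of the brightest is below the floor and its ratio is a bound of -0.22. Of 8 glial and nerve markers 5 were on the array, and 3 of these were above the floor. Mbp read 356 against 405 (-0.19) in its brightest probe set, and -0.72 and a bound of -0.90 in others, S100b 238 against 352 (-0.57, with another at 0.11), and Sox10 216 against 191 (0.17). Gfap and Nefl were below the floor on both arrays, and the list summed to 879 on the allograft and 1044 on the autograft array. The part of these cells in the Ptprz1 values was not tested.

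Lists of genes that act with the markers were described in the same way, with the brightest probe set for each gene. Over 7833 genes above the floor on at least 1 array the median ratio was -0.08, 59.5% were below 0, 0.753% were at least 2-fold lower and 0.868% at least 2-fold higher. By the same count, 7 of the 8 marker genes that passed the floor were below 0, with a median of -0.49, and 4 were at least 1.5-fold lower (background 6.56%) and 0 at least 1.5-fold higher (background 4%). Of the matrix and mineral genes around Dmp1 and Mepe, 5 of 7 on the array were above the floor, 3 of them below 0. Omd, osteomodulin, read 811 against 1952 (-1.27) and Alpl, the alkaline phosphatase that frees phosphate for mineral, 2197 against 5241 (-1.25). Mgp, an inhibitor of calcification, was the highest at 6596 against 3435 (0.94). Ibsp, bone sialoprotein, which lies next to Mepe, read 8109 against 7811 (0.05) in its brightest probe set and 2242 against 3315 (-0.56) in the other. Dspp was below the floor on both arrays.

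Genes of phosphate control around Phex and Fgf23 had 11 of 16 members above the floor, 9 of them below 0, with a median of -0.29 and none 2-fold apart. Pth1r, the receptor of parathyroid hormone on bone cells, was lowest at 1545 against 2949 (-0.93), and Slc20a1, a sodium-phosphate cotransporter, highest at 942 against 812 (0.21). Kl, the FGF23 co-receptor, and Cyp27b1, the enzyme that activates vitamin D, were below the floor on both arrays. Around sclerostin, 9 of 12 genes were above the floor and 6 of them below 0, with a median of -0.44 and none 2-fold apart. Lrp6, a Wnt co-receptor that sclerostin binds, was highest at 1112 against 833 (0.42). Sfrp1, a secreted Wnt antagonist, was lowest with a bound of -0.84 (34.4 against 313.7). Another Sfrp1 probe set read 175.8 against 65.2, but with the allograft value just above the floor its bound is 0.00. Lrp4, Lrp5 and Sostdc1 were below the floor on both arrays.

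Genes of the osteocyte dendrite and lacuna did not lie below 0 as a group: 9 of the 15 above the floor were above 0, with a median of 0.06. Kera, keratocan, read 1933 against 647 (1.58) and was the only one 2-fold apart, and Npy, neuropeptide Y, was lowest at 290 against 518 (-0.84). Gja1, the connexin of osteocyte gap junctions, read 6137 against 5882 (0.06), and Mmp14, a membrane-bound protease linked to dendrite formation, 4453 against 4005 (0.15). Partners of podoplanin and CD44 were split, with 6 of 12 below 0 and a median of -0.09. Clec1b, the platelet receptor of podoplanin, was highest at 834 against 604 (0.47), and Ezr, the membrane linker ezrin, lowest at 794 against 1194 (-0.59), though its other probe set stood at 0.52. Rdx (-0.24) had other probe sets at 0.81 and at a bound of 0.44, and Rhoa (-0.38) had another at 0.43. Vcan (0.01) had others at -0.59 and at a bound of 0.12. The count below 0 thus depends on the probe set taken for these genes. Among ligands and substrates of PTPRZ1, Ptn, pleiotrophin, read 788 against 354 (1.16), and L1cam, an adhesion protein, was lowest at 239 against 335 (-0.49); 5 of the 7 above the floor were below 0.

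**Figure D3:**
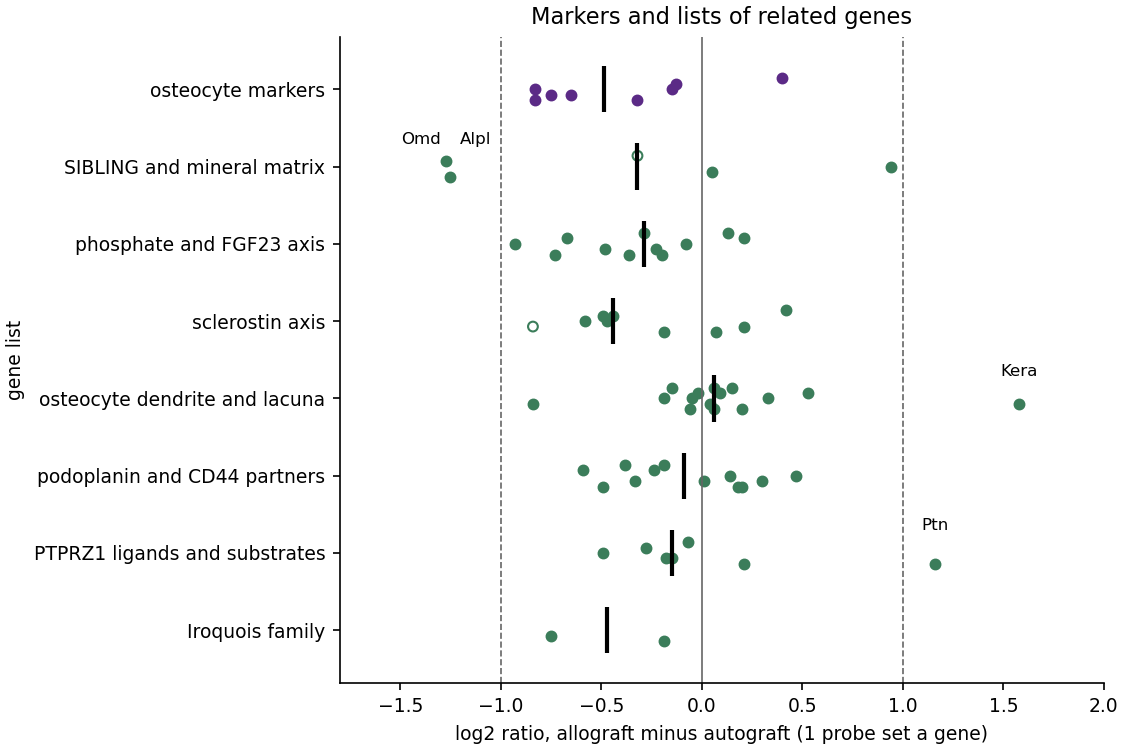
Log2 ratio of allograft over autograft (horizontal axis) for genes above the floor on at least 1 array, 1 probe set a gene, in the marker list (purple, 8 genes) and in each list of related genes (green). Open points are bounds against the floor, black bars are list medians, dashed lines mark 2-fold, and genes beyond 2-fold are named (Omd, Alpl, Kera and Ptn).

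Markers of neighbouring cells and the 3′ and 5′ control probe sets differed between the arrays as well. Beside 59.5% of the 7833 genes above the floor on at least 1 array, 3 of 6 osteoblast markers were below 0. Their intensities summed to 22773 against 20375 with the collagen genes Col1a1 (4994 against 771, 2.70) and Col1a2 (5111 against 2362, 1.11) and to 12668 against 17242 without them. The other Col1a1 probe set read 2736 against 31.3 (a bound of 3.96). The other Col1a2 probe set read 445.5 against 14.9 (a bound of 1.35). Both autograft values lay below the floor. Of the chondrocyte markers 5 of 6 above the floor were below 0 (16321 against 19062). Of the osteoclast markers 3 of 5 above the floor were above 0, with a median of 0.10 and sums of 22982 against 18884. The other 2 were Ocstamp (-1.46) and Oscar (-0.95, with another probe set at -1.10). Erythroid markers had 6 of 6 above 0 with a median of 1.04 (16808 against 8804), and skeletal muscle markers 5 of 6 (38792 against 29602). The 4 epithelial markers were below the floor on both arrays. For the Actb controls, the 3′ probe set read 1.77 times the 5′ one in the allograft sample and 1.19 times in the autograft sample. For Gapdh these ratios were 0.194 and 0.0349, with the 3′ probe set below the 5′ one on both arrays. The Gapdh 3′ probe set read 1577 in the allograft and 233 in the autograft sample, and the 5′ one 8122 against 6671. The part of these differences in the marker ratios was not tested.

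Each measured marker kept the sign of its ratio under every other scaling and floor that gave it a value. Dmp1 lay between -0.83 and -0.76, Phex between -0.65 and -0.59, Irx5 between -0.75 and -0.63 and Ank between -0.40 and -0.25. The brightest Ptprz1 probe set lay between -0.83 and -0.22, Mepe between -0.15 and -0.04, Pdpn between -0.14 and -0.07, and the brighter Cd44 probe set between 0.39 and 0.46. These settings reuse the same 2 arrays, so they show the effect of processing and not that of repeating the experiment.

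**Figure D4:**
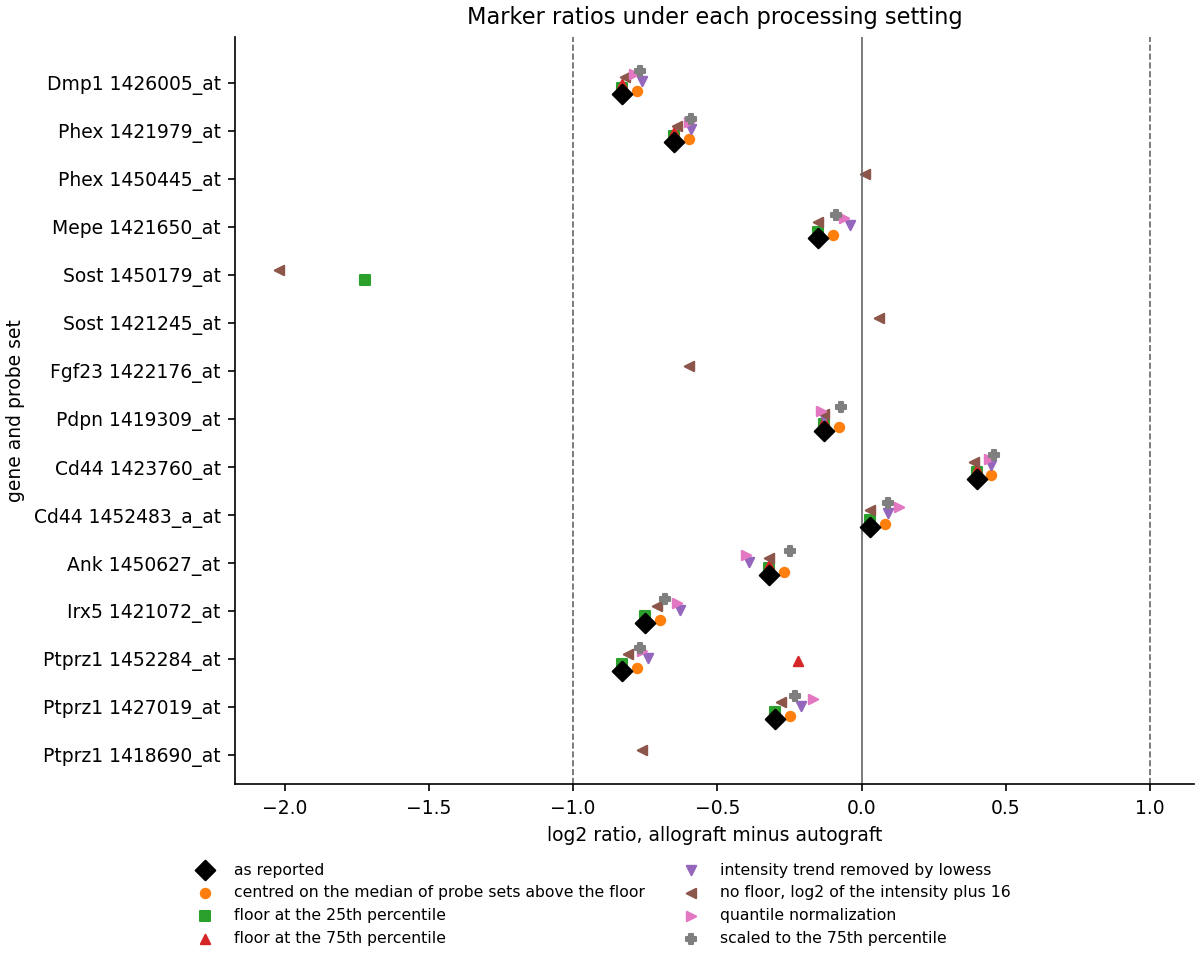
Log2 ratio of allograft over autograft (horizontal axis) of each marker probe set as reported (black diamonds) and under the other scalings and floors (coloured symbols). The 5 probe sets below the floor on both arrays appear only in settings that lower or drop the floor, and among them the Sost probe set at -1.72 and -2.02 is the only marker beyond the dashed 2-fold lines.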

How the data were processed

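Total RNA was measured on 2 oligonucleotide arrays, grouped by their titles. The authors deposited 1 intensity per probe set and array on a linear scale, from the values in the table. Software, background correction and scaling: not given in the sources used here. The 2% trimmed means were 500.2 (allograft) and 500.1 (autograft), and the intensities were used as deposited. Of 22690 probe sets, 64 controls, 691 with several symbols and 1555 without one were left out of the comparison. All 10 members' Entrez identifiers matched the RefSeq table of GRCm38.p6. Values below the floor were set to it before log2 was taken. In lists each gene takes its brightest probe set by mean intensity. Genes named are all members and, from the lists of related genes, those 2-fold apart with both arrays above the floor and the highest and lowest of each list; the rule does not cover the cell type marker lists. Ibsp, Dspp, Kl, Cyp27b1, Lrp4, Lrp5, Sostdc1, Gja1, Mmp14, Rdx, Rhoa, Vcan and the cell type markers named were chosen after their values were seen. No gene is named for a like pattern, since over 2 arrays a pattern is a single ratio. Members and lists were chosen with earlier results of these data known. The counting step was tested on simulated data. The planted changes were larger than those of the measured members and lay in bright probe sets only. That test thus checked the code and not how well small changes are found. The number of arrays limits the precision. Alternatives were quantile normalization, other centring and scaling, lowess (span 0.4), floors at the 25th and 75th percentile, log2 of the intensity plus 16, thresholds of 1.5-fold and 4-fold, unmarked probe sets and 1 probe set a gene. Tools were numpy 2.4.6 and statsmodels 0.14.6 for the ratios and matplotlib 3.10.9 for figures, under Python 3.11.15.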

Additional observations from a re-analysis of the deposited data

How the results depend on the processing

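With 1 array a graft type, these settings show only what the processing changes. The count of marker probe sets lower by 2-fold or more in the allograft was 0 as reported, 1 of 11 with the floor at the 25th percentile (2.6% of all probe sets), 1 of 15 with no floor and log2 of the intensity plus 16 (4.09% of all), in each case a Sost probe set, at -1.72 and -2.02, and 4 of 10 at a threshold of 1.5-fold (6.49% of all); it was 0 in the other settings run. The count at least 2-fold higher was 0 in every setting run, beside 0.99% of all probe sets as reported and 2.33% with no floor. The count below 0 was 8 of 10 as reported (58.3% of all). It was 5 of 6 with the floor at the 75th percentile (53% of all), where fewer probe sets have a value. The median of -0.31 lay between -0.49, with 1 probe set a gene, and -0.24, with scaling to the 75th percentile. Of 66 further values of the 10 measured probe sets, 65 moved by less than 0.31, the SD of a ratio from probe sets of 1 gene; the other was the brightest Ptprz1 probe set, at -0.22 with the floor at the 75th percentile. No paired analysis was possible because each graft type has 1 array. Values near the floor are limited by signal over background: at 183 and 180, the dimmer Cd44 probe set is barely above it.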
